A study of Mus musculus with 20 samples.

Results

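The genes described here make cholesterol and fatty acids, control that synthesis, or export sterol from cells. They were chosen by name, as the probe sets whose single annotated gene symbol was one of 30 listed symbols. Of the 30 genes, 27 had such a probe set, and all 27 lay above the filter on dim signal and were tested, among 16739 genes tested of 21423 gene symbols on the array. Idi1 and Scd2, whose probe sets are shared with another symbol, and Acat2, with no probe set of a single symbol, were not analysed here.

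Female C57BL/6JOlaHsd mice of about 11 weeks, 20 in all and 4 in each of 5 groups, gave whole RNA from the middle part of the colon, and each was read on its own Affymetrix array. Untreated healthy mice (numbers 2, 4, 6 and 7) received saline, and probiotic healthy mice (4, 5, 6 and 7) received a mixture of the bacterial strains L930BB and IM386 by intragastric tube. Untreated colitis mice (5, 6, 7 and 10), probiotic colitis mice (3, 5, 7 and 8) and cyclosporine colitis mice (4, 7, 9 and 10) had 3% dextran sulphate sodium (DSS), which damages the lining of the colon, in their drinking water over 5 days. The untreated colitis mice received saline, the probiotic colitis mice the same bacterial mixture before and during DSS, and the cyclosporine colitis mice 25 mg/kg of cyclosporine A by mouth daily from day 1 to day 15. No healthy group received cyclosporine, and the tissue was whole colon wall, so fewer cells of a type and less RNA per cell cannot be told apart. Mice were kept 5 to a cage, and the cage of each mouse is not given in the sources used here.

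Cholesterol is built from acetyl-CoA through mevalonate, farnesyl diphosphate, squalene and lanosterol, by enzymes of the cytosol and the endoplasmic reticulum. When sterol in the membrane of the endoplasmic reticulum is low, SCAP carries the SREBP precursors to the Golgi, where they are cut to free transcription factors. SREBP-2 (Srebf2) acts mainly on genes of sterol synthesis and uptake, and SREBP-1 (Srebf1) mainly on genes of fatty acid synthesis. When sterol is high, INSIG proteins hold SCAP back, and oxysterols activate the nuclear receptors LXR, which raise the exporters ABCA1 and ABCG1. Colonocytes make sterol and fatty acid for a rapidly renewed epithelium, and macrophages export the cholesterol of the cells they engulf.

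All values are log2 expression per probe set, so a difference of 1 is a 2-fold difference in signal, and levels are compared between mice and never between genes. "Rose" and "fell" are written of a Benjamini-Hochberg adjusted p under 0.05 over all 16739 genes in limma, and changes are given with their standard error, from 4 mice a group. Array medians lay between 6.22 and 6.29. On principal components of all tested genes 3 arrays lay far from the rest of their groups, namely mouse 2 of the untreated healthy group, mouse 6 of untreated colitis and mouse 8 of probiotic colitis. Cyclosporine mouse 9, not among these 3, was lowest of all 20 on the third component. It lay at -21.37 there, against -13.17, -5.84 and -4.84 in cyclosporine mice 4, 7 and 10. Of 12 epithelial markers, 12 lay above the array median on all 20 arrays. The lowest value of a tested member on any array was 6.66, above the filter level of 5.30. The number of arrays limits the precision.

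With colitis in untreated mice 2 of the 27 genes rose and 4 fell, 22.2% in all, against 11.7% of all genes rising and 14.4% falling, so the share was near that of all genes. The sterol exporters Abca1 and Abcg1 rose. The late sterol enzymes Ebp and Dhcr7, the transcription factor Srebf2 and the citrate-cleaving enzyme Acly fell. In healthy mice the probiotic was followed by 0 calls in either direction among the 27 genes and among all genes (0% and 0%), with 8 of the 27 and 1511 of all genes at an unadjusted p under 0.05 in limma.

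In colitis, probiotic against untreated mice gave 0 calls among the 27, against 2.13% of all genes rising and 0.669% falling, with 2 of the 27 (Abca1 and Abcg1) at an unadjusted p under 0.05 in limma. Cyclosporine against untreated colitis gave 1 rise, of the fatty acid desaturase Scd1, and 1 fall, of the mevalonate enzyme Mvd, against 7.58% and 5.58% of all genes. Cyclosporine against probiotic colitis gave 2 rises (Acly and Scd1) and 4 falls (Mvd, Srebf2, Abca1 and Abcg1), against 11.3% and 12.0%.

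Probiotic colitis against probiotic healthy mice gave the most calls among the 27, with 10 rises and 3 falls against 13.6% and 16.1% of all genes. Of the 10 that rose, 8 were sterol enzymes, and their values in probiotic healthy mice were low, as given below. The direct test of whether the probiotic effect differed between colitis and health, which is equally the test of whether the colitis effect differed with and without the probiotic, gave 0 calls among the 27 and among all genes (0% and 0%), with 5 of the 27 and 1446 of all genes at an unadjusted p under 0.05. The comparisons share groups of mice, so their values are given side by side and are not independent of each other.

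**Figure D1:**
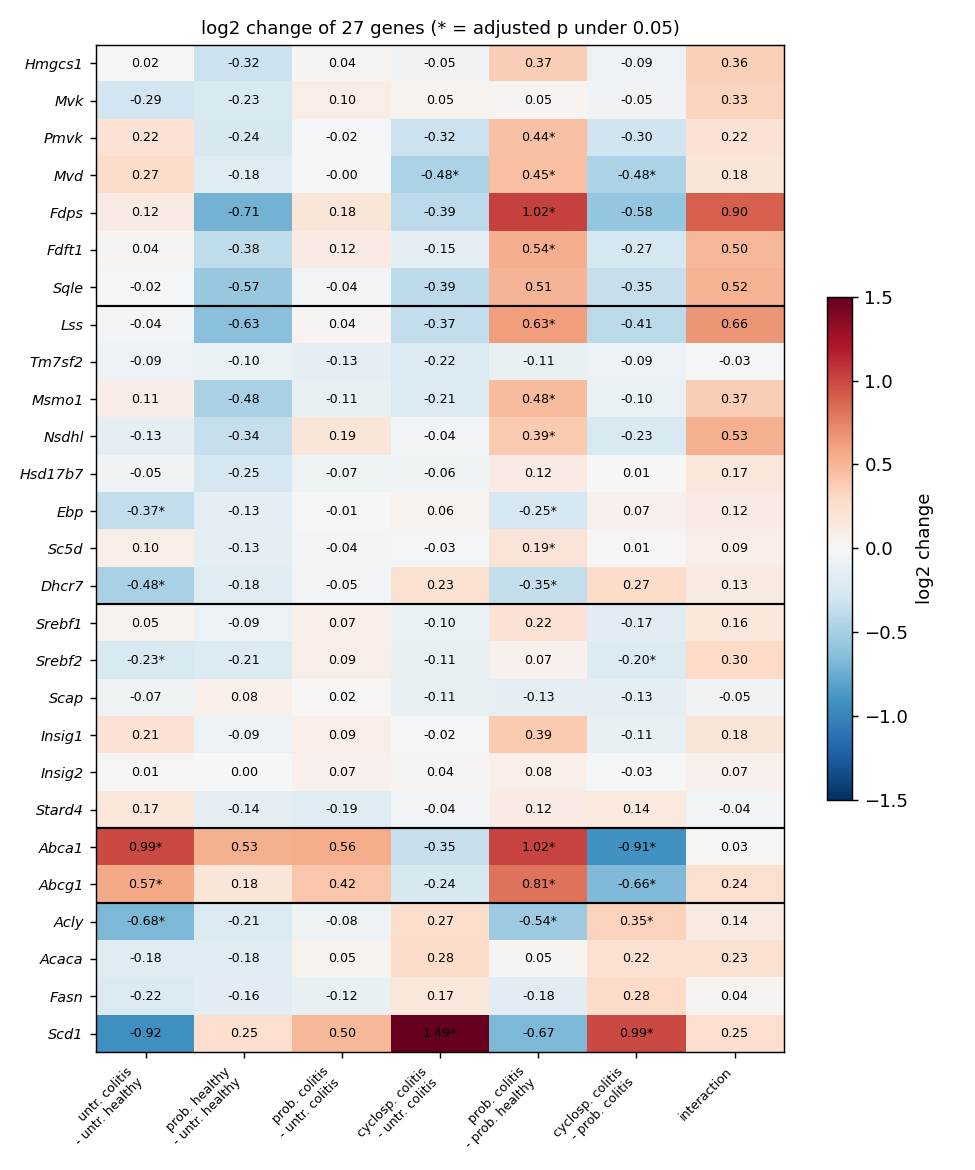
Difference in log2 expression of the 27 tested genes (rows, grouped by role with black lines) in the 7 comparisons (columns), each the first group minus the second, from 4 mice a group. An asterisk marks an adjusted p under 0.05, and Fdps at 1.02 in probiotic colitis against probiotic healthy and Scd1 at 1.49 in cyclosporine against untreated colitis stand out.

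The median change of the 27 genes was close to that of all genes in untreated colitis against untreated healthy, at -0.02 against -0.03. It was -0.18 against -0.01 for the probiotic in healthy mice and 0.19 against -0.04 for probiotic colitis against probiotic healthy. For the 15 sterol enzymes alone these medians were -0.02, -0.25 and 0.39. In probiotic against untreated healthy mice the differences of all 15 enzymes lay below 0, and none of them passed the test. In the same comparison all 12 epithelial markers lay below 0 (median -0.10) and all 9 endothelial markers above 0 (median 0.31, 7 at an unadjusted p under 0.05), with 0 passing in either list. The mean deviation ranged from 0.04 to 0.15 in untreated and -0.07 to 0.02 in probiotic healthy mice for the epithelial markers, and from -0.53 to -0.23 and 0.01 to 0.07 for the endothelial ones. Their part in the enzyme values was not tested.

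The first enzymes of the path make and use mevalonate. Hmgcs1 condenses acetyl-CoA units into HMG-CoA, Mvk and Pmvk add phosphates to mevalonate, Mvd removes a carboxyl group to give isopentenyl diphosphate, and Fdps joins these units to farnesyl diphosphate. Fdft1 then makes squalene and Sqle oxidises it, the step before ring closure by Lss. Of these first 7 enzymes, from Hmgcs1 to Sqle, none passed the test with colitis in untreated mice. There 11.7% of all genes rose and 14.4% fell. In probiotic colitis against probiotic healthy 4 rose (Pmvk, Mvd, Fdps and Fdft1), against 13.6% of all genes, and Mvd fell with cyclosporine.

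The promoters of sterol enzymes are known to be bound by SREBP together with NF-Y and Sp1, so these motifs were counted in the 250 bases before the start sites of the RefSeq table, of GRCm38.p6, on both strands. A window was found for 23 of the 30 genes, 31 windows in all, and 32851 windows made up the whole table. The SREBP motif TCACNCCAC was in 1 of the 31 windows (3.23%, against 1.05% of all windows), that of Hmgcs1. The NF-Y box CCAAT was in 61.3% of the genes' windows against 33.8% of all, the GC box GGGCGG, a motif of Sp1, in 74.2% against 32.7%, and the E-box CACGTG in 19.4% against 6.02%. No match of one motif overlapped a match of another in the 31 windows, and a match is a description of the letters, not a site of binding. The 4 windows printed are those of Hmgcs1, the gene with the SREBP motif, of Mvd and Lss, an early and a later enzyme whose values are given in every mouse, and of Abca1, the exporter. Capitals mark the motifs, 5′ to 3′ on the strand of the gene, at chr13:119690101-119690350 on the plus strand, chr8:122443423-122443672 on the minus strand, chr10:76531355-76531604 on the plus strand and chr4:53159896-53160145 on the minus strand.
Hmgcs1: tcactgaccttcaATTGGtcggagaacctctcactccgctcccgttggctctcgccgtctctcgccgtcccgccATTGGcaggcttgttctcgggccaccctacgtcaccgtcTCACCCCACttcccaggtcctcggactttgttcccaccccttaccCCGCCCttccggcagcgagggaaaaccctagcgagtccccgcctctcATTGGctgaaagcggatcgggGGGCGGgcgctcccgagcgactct
Mvd: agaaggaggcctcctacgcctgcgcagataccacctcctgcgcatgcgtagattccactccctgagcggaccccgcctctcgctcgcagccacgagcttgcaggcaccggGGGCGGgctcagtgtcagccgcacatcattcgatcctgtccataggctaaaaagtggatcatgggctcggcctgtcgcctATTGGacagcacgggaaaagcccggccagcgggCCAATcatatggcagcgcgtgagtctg
Lss: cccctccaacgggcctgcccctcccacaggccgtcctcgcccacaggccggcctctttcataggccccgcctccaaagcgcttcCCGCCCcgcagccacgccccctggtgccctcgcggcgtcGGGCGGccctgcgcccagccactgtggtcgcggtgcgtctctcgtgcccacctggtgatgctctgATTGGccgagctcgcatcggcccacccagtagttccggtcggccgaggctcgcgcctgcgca
Abca1: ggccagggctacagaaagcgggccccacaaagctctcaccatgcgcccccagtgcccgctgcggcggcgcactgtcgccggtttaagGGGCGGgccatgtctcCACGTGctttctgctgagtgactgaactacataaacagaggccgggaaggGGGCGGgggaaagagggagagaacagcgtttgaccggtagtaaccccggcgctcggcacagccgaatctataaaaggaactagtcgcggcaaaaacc
The windows of Hmgcs1, Mvd and Lss hold 3, 2 and 1 NF-Y boxes, and that of Abca1 holds 2 GC boxes and 1 E-box and no NF-Y box. Each window belongs to one RefSeq transcript start, and the start used in the colon was not measured.

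Fdps, whose product is the branch point to sterols and to isoprenoid chains on proteins, differed most among the enzymes. Its values were 9.13, 8.85, 9.23 and 8.29 in untreated healthy mice (2, 4, 6 and 7) and 8.44, 7.69, 7.69 and 8.83 in probiotic healthy mice (4, 5, 6 and 7). They were 8.91, 9.07, 8.75 and 9.27 in untreated colitis, 9.32, 9.13, 9.24 and 9.05 in probiotic colitis and 8.74, 8.54, 8.62 and 8.53 in cyclosporine colitis. Every probiotic colitis mouse lay above every probiotic healthy mouse, whose mice 5 and 6 were the lowest of all 20, and every cyclosporine mouse lay below every other mouse with colitis. Fdps rose by 1.02 ± 0.22, or 2.03-fold, in probiotic colitis against probiotic healthy mice (limma, adjusted p = 0.00136), and was called under all 18 alternative settings. The difference of probiotic from untreated healthy mice was -0.71 (95% interval -1.17 to -0.26, adjusted p = 0.386), and that of cyclosporine from probiotic colitis -0.58 (interval -1.03 to -0.12, adjusted p = 0.0625).

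Mvd was the only sterol enzyme called with cyclosporine. Its values in cyclosporine colitis were 7.49, 7.60, 7.57 and 7.53, a range narrower than in any other group. In untreated colitis they were 7.95, 8.32, 7.76 and 8.08, in probiotic colitis 8.20, 8.19, 7.92 and 7.79, in untreated healthy mice 7.97, 7.73, 7.88 and 7.44, and in probiotic healthy mice 7.47, 7.38, 7.55 and 7.87. The cyclosporine mice lay below all mice of both other colitis groups and within the range of both healthy groups. Mvd fell by 0.48 ± 0.13, or 1.39-fold, against untreated colitis (adjusted p = 0.0213) and by 0.48 ± 0.13 against probiotic colitis (adjusted p = 0.0129). The first call was lost without untreated colitis mouse 6 (adjusted p = 0.0614) or cyclosporine mouse 4 (0.0530), and the second without probiotic colitis mouse 3 (0.0506) or 5 (0.0504). Both were also lost with a replicate block in the fit (adjusted p = 0.1025 and 0.0904). Mvd rose by 0.45 ± 0.13 in probiotic colitis against probiotic healthy mice (adjusted p = 0.0132), with the groups overlapping through probiotic healthy mouse 7, and was called there under all 18 settings.

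Pmvk had values of 8.36, 7.98, 8.08 and 8.36 in probiotic healthy mice and 8.82, 8.71, 8.56 and 8.44 in probiotic colitis, with no overlap. In untreated healthy mice they were 8.40, 8.42, 8.63 and 8.27, in untreated colitis 8.40, 9.04, 8.49 and 8.67, and in cyclosporine colitis 8.30, 8.17, 8.78 and 8.08. Pmvk rose by 0.44 ± 0.15 between the probiotic groups (adjusted p = 0.0324). Fdft1 had values of 10.01, 9.69, 9.64 and 10.59 in probiotic healthy mice and 10.61, 10.58, 10.53 and 10.39 in probiotic colitis, so mouse 7 of the healthy group lay among the colitis mice. In untreated healthy mice they were 10.70, 10.34, 10.44 and 9.99, in untreated colitis 10.20, 10.70, 10.05 and 10.68, and in cyclosporine colitis 10.01, 10.10, 10.30 and 10.62. Fdft1 rose by 0.54 ± 0.20 between the probiotic groups (adjusted p = 0.0451).

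Hmgcs1, Sqle and Mvk passed in no comparison. Hmgcs1 ranged from 10.65 to 11.69 over the 20 mice, Sqle from 8.48 to 9.76 and Mvk from 7.38 to 8.13. Hmgcs1 and Sqle had the lowest values in probiotic healthy mice 5 and 6, as Fdps did. Sqle differed by 0.51 between probiotic colitis and probiotic healthy mice (adjusted p = 0.0632) and Hmgcs1 by 0.37 (adjusted p = 0.135). Without probiotic healthy mouse 7 both passed, Sqle at 0.74 (adjusted p = 0.00325) and Hmgcs1 at 0.55 (adjusted p = 0.0223). Without probiotic healthy mouse 5 they were 0.35 (adjusted p = 0.221) and 0.25 (adjusted p = 0.364). Mvk differed by -0.29 in untreated colitis against untreated healthy (adjusted p = 0.0624) and passed without untreated healthy mouse 7 (adjusted p = 0.0460) or untreated colitis mouse 10 (adjusted p = 0.0364).

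**Figure D2:**
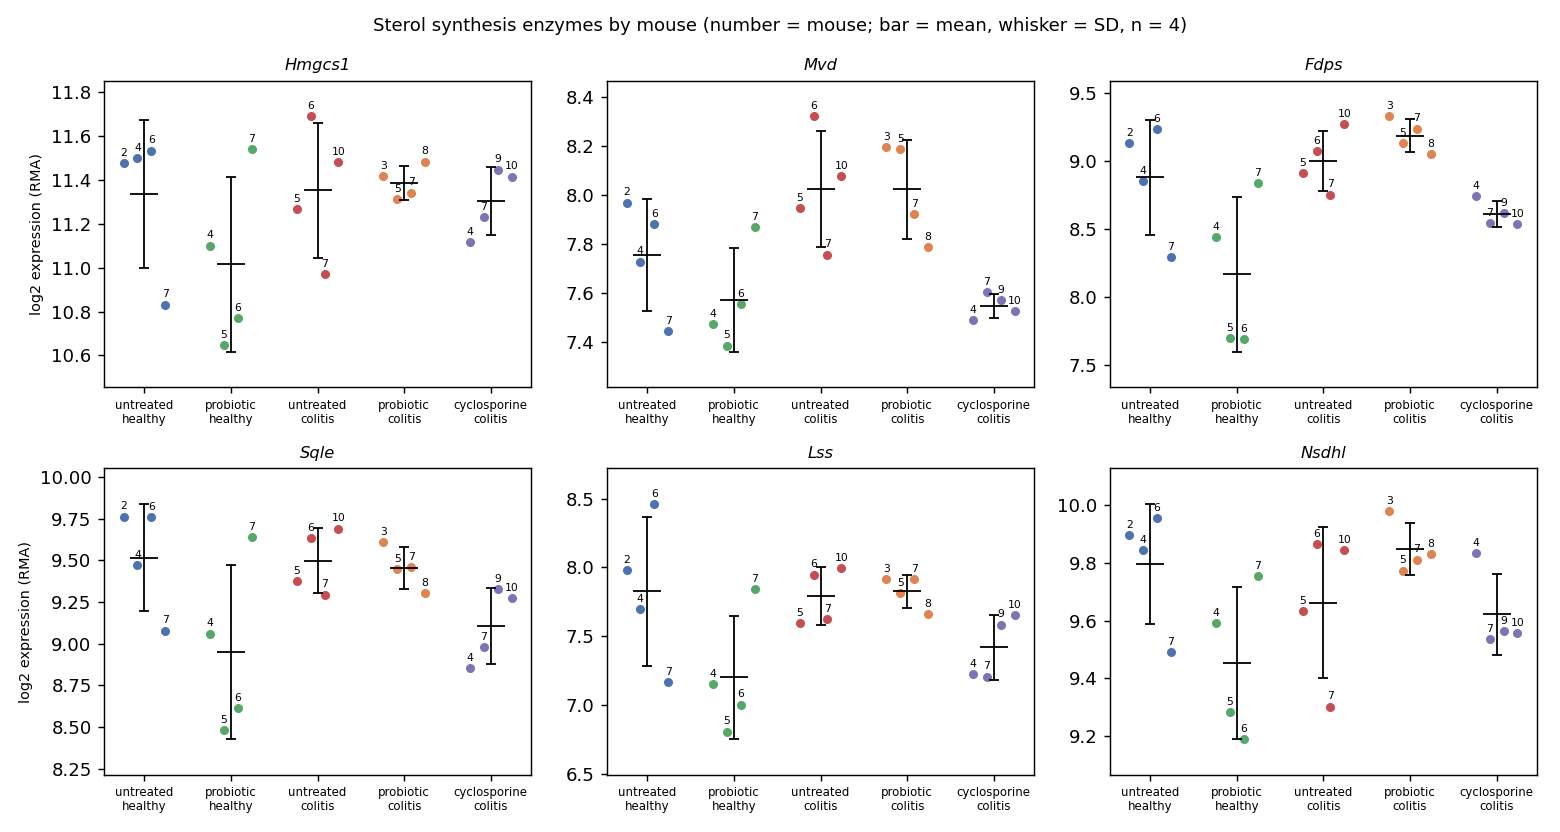
log2 expression of 6 sterol synthesis enzymes (y axes, each panel on its own scale) in the 5 groups (x axis), with 1 numbered point per mouse, a bar for the mean and a whisker for the SD of 4 mice. In probiotic healthy mice, mice 5 and 6 lie lowest and mouse 7 highest in the panels of Hmgcs1, Fdps, Sqle and Lss, and the 4 cyclosporine mice lie together at 7.49 to 7.60 for Mvd.

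The later enzymes turn squalene epoxide into cholesterol. Lss closes the rings to lanosterol, Tm7sf2 reduces a double bond of the sterol nucleus, Msmo1, Nsdhl and Hsd17b7 take part in removing methyl groups, and Ebp, Sc5d and Dhcr7 move, add and remove the last double bonds. Between the probiotic groups these 8 enzymes split in their directions. In probiotic colitis against probiotic healthy mice Lss, Msmo1, Nsdhl and Sc5d rose while Ebp and Dhcr7 fell, against 13.6% and 16.1% of all genes. In untreated colitis Ebp and Dhcr7 fell with 0 of the 8 rising, against 14.4% of all genes falling and 11.7% rising.

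Lss values were 7.98, 7.70, 8.46 and 7.17 in untreated healthy mice and 7.15, 6.81, 7.00 and 7.84 in probiotic healthy mice. They were 7.60, 7.95, 7.62 and 7.99 in untreated colitis, 7.91, 7.82, 7.92 and 7.66 in probiotic colitis, and 7.23, 7.21, 7.58 and 7.66 in cyclosporine colitis. The probiotic healthy group was low apart from mouse 7, which lay inside the probiotic colitis range. Lss rose by 0.63 ± 0.22, or 1.54-fold, between these groups (adjusted p = 0.0399), and its difference between the healthy groups was also -0.63 (interval -1.09 to -0.16, adjusted p = 0.425).

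Msmo1 had values of 9.42, 8.93, 9.03 and 9.74 in probiotic healthy mice and 9.85, 9.70, 9.73 and 9.74 in probiotic colitis. In untreated healthy mice they were 10.18, 9.75, 9.81 and 9.31, in untreated colitis 9.73, 10.00, 9.73 and 10.02, and in cyclosporine colitis 9.54, 9.50, 9.61 and 9.97. Msmo1 rose by 0.48 ± 0.17 between the probiotic groups (adjusted p = 0.0387), with mouse 7 of the healthy group again among the colitis mice. Nsdhl had values of 9.59, 9.28, 9.19 and 9.75 in probiotic healthy and 9.98, 9.77, 9.81 and 9.83 in probiotic colitis mice, which did not overlap. In untreated healthy mice they were 9.90, 9.84, 9.95 and 9.49, in untreated colitis 9.63, 9.87, 9.30 and 9.84, and in cyclosporine colitis 9.83, 9.54, 9.56 and 9.56. Nsdhl rose by 0.39 ± 0.14 between the probiotic groups (adjusted p = 0.0334).

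Sc5d moved least of the enzymes that passed. Its values were 10.09, 10.04, 9.93 and 10.10 in probiotic healthy and 10.29, 10.17, 10.22 and 10.24 in probiotic colitis mice, with no overlap. In untreated healthy mice they were 10.19, 10.16, 10.23 and 10.11, in untreated colitis 10.26, 10.36, 10.07 and 10.41, and in cyclosporine colitis 10.28, 10.16, 10.30 and 10.24. Sc5d rose by 0.19 ± 0.07 between the probiotic groups (adjusted p = 0.0434). Tm7sf2, from 7.75 to 8.44 over the 20 mice, and Hsd17b7, from 7.29 to 8.06, passed in no comparison.

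Most of these calls lay close to the threshold. Of the 8 enzymes that rose between the probiotic groups, Mvd and Fdps were called whichever mouse was left out. The calls of the other 6 were each lost without probiotic healthy mouse 5 or 6, with adjusted p from 0.0774 to 0.141 without mouse 5 and from 0.0856 to 0.150 without mouse 6, and each also without probiotic colitis mouse 3, with adjusted p from 0.0890 to 0.117. Some were lost without other mice too: Fdft1, Lss and Sc5d without probiotic healthy mouse 4 (adjusted p = 0.0728, 0.0775 and 0.0520), and Pmvk, Fdft1, Lss, Msmo1 and Sc5d without probiotic colitis mouse 5 (adjusted p from 0.0503 to 0.0932). Without probiotic colitis mouse 7 the calls of Fdft1, Lss, Msmo1, Nsdhl and Sc5d were lost (adjusted p from 0.0568 to 0.0883), and without probiotic colitis mouse 8 those of Msmo1 (0.0561) and Sc5d (0.0712). A replicate block in the fit ended the calls of Fdft1, Lss, Msmo1, Nsdhl and Sc5d (adjusted p from 0.0950 to 0.217). The calls of Fdft1 and Sc5d were also lost with no filter (0.055 and 0.0595) and with each array centred (0.0518 and 0.0841). That of Fdft1 was lost with trended robust eBayes (0.0556), and that of Sc5d without the 3 arrays that lay apart (0.0727). With the 1 mouse left out whose absence ended the call, the change of Fdft1 lay between 0.43 and 0.55 and that of Lss between 0.49 and 0.63, against 0.54 and 0.63 with all mice. The number of the 27 genes that rose ranged from 4 to 13 with 1 mouse left out, 13 being the count without probiotic healthy mouse 7.

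In the healthy groups and in untreated colitis most enzymes were high or low in the same mice. The mean deviation of the 15 enzymes from their averages over 20 arrays was -0.14, -0.43, -0.41 and 0.16 in probiotic healthy mice and 0.28, 0.11, 0.27 and -0.19 in untreated healthy mice. Probiotic healthy mouse 7 was the highest of its group in 15 of 15 enzymes, and mice 5 and 6 were each below the lowest untreated healthy mouse in 14 of 15. Untreated healthy mouse 7 was the lowest of its group in 14 of 15. Untreated colitis mouse 7 was lowest in 12 of 15 and mouse 5 in 3, and mice 6 and 10 were highest in 8 and 7. The treated colitis groups were less uniform. Probiotic colitis mouse 3 was highest in 11 and lowest in 0, and mice 5, 7 and 8 were lowest in 5, 4 and 6. Cyclosporine mouse 9 was highest of its group in 7 and lowest in 0, but mouse 4 was highest in 3 and lowest in 5. Cyclosporine mouse 7 was highest in 1 and lowest in 5, and mouse 10 highest in 4 and lowest in 5. The colitis groups had means of -0.03, 0.28, -0.17 and 0.23 without treatment, 0.19, 0.08, 0.05 and 0.04 with the probiotic and -0.14, -0.16, 0.02 and -0.03 with cyclosporine. The spread between mice was thus largest in the healthy probiotic group (SD 0.28) and smallest in the probiotic colitis group (SD 0.07). In probiotic healthy mice 4, 5, 6 and 7 epithelial markers were at -0.02, -0.07, -0.05 and 0.02, the order of the enzymes. Cycling cell markers were at -0.12, -0.28, -0.36 and 0.21. Mice 5 and 6 lay below mice 4 and 7 in the colonocyte, goblet cell and endothelial lists too, but not in the others. In untreated healthy mice epithelial markers were at 0.15, 0.07, 0.04 and 0.14. Cycling cell markers were at -0.06, 0.10, -0.57 and -0.16 there, and neither list kept the enzymes' order. What separated the mice of one group was not tested.

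**Figure D3:**
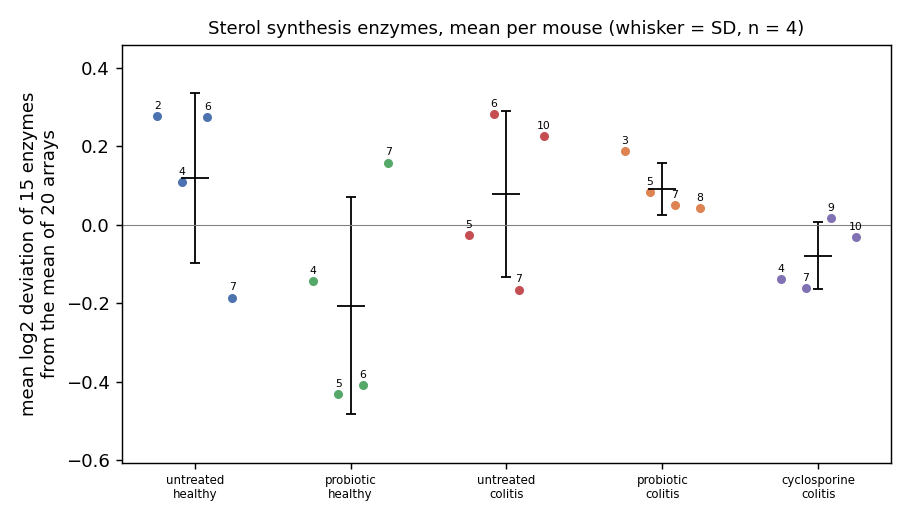
Mean deviation of the 15 sterol synthesis enzymes from their averages over all 20 arrays (y axis, log2) in the 5 groups (x axis), 1 numbered point per mouse, with the mean and SD of 4 mice. Probiotic healthy mice 5 and 6 are lowest at -0.43 and -0.41, and untreated colitis mouse 6 and untreated healthy mouse 2 are highest at 0.28.

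Ebp, the isomerase of the sterol nucleus, and Dhcr7, the reductase of the last step, behaved apart from these enzymes. Ebp values were 9.20, 9.16, 9.29 and 9.29 in untreated healthy mice and 8.78, 9.01, 8.73 and 8.96 in untreated colitis, with no overlap. They were 9.05, 9.08, 9.04 and 9.26 in probiotic healthy, 8.96, 8.87, 8.73 and 8.88 in probiotic colitis and 8.89, 8.89, 9.04 and 8.88 in cyclosporine colitis mice. Ebp fell by 0.37 ± 0.07, or 1.29-fold, with colitis in untreated mice (adjusted p = 0.00135) and by 0.25 ± 0.07 in probiotic mice (adjusted p = 0.0155). The second call was lost without probiotic healthy mouse 7 (adjusted p = 0.0620) or probiotic colitis mouse 7 (adjusted p = 0.0634), and with a replicate block (adjusted p = 0.0573).

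Dhcr7 values were 10.16, 10.12, 10.06 and 9.82 in untreated healthy and 9.49, 9.80, 9.22 and 9.71 in untreated colitis mice. They were 9.88, 9.87, 9.78 and 9.92 in probiotic healthy, 9.49, 9.44, 9.48 and 9.62 in probiotic colitis and 9.75, 9.73, 9.88 and 9.77 in cyclosporine colitis mice. Every colitis mouse without cyclosporine lay below every healthy mouse given the same treatment, and every cyclosporine mouse above every probiotic colitis mouse. Dhcr7 fell by 0.48 ± 0.10, or 1.40-fold, with colitis in untreated mice (adjusted p = 0.0016) and by 0.35 ± 0.10 in probiotic mice (adjusted p = 0.0115). The second call was lost with a replicate block (adjusted p = 0.0986). The difference of cyclosporine from probiotic colitis in Dhcr7 was 0.27 (interval 0.06 to 0.48, adjusted p = 0.0551) and passed under 8 of the 18 settings, among them without probiotic colitis mouse 8 (adjusted p = 0.0382). Against untreated colitis it was 0.23 (adjusted p = 0.144) and passed without untreated colitis mouse 6, at 0.31 (adjusted p = 0.0419).

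Markers of colonocytes fell with colitis, as Ebp, Dhcr7 and Acly did. Of 13 tested, 9 fell and 1 rose in untreated colitis, 10 fell and 1 rose in probiotic colitis against probiotic healthy, and 9 rose and 1 fell with cyclosporine against untreated colitis, where Ebp was at 0.06, Dhcr7 at 0.23 and Acly at 0.27 and none of them passed. Of all genes 14.4% fell and 11.7% rose, 16.1% fell and 13.6% rose, and 7.58% rose and 5.58% fell in these comparisons. In probiotic against untreated colitis 3 markers fell (median -0.41), with Ebp at -0.01, Dhcr7 at -0.05 and Acly at -0.08. The markers' mean deviation over the arrays ranged from 0.39 to 0.50 in untreated healthy, 0.31 to 0.38 in probiotic healthy, -0.45 to -0.25 in untreated colitis, -0.92 to -0.33 in probiotic colitis and 0.17 to 0.25 in cyclosporine colitis mice. Their part in the changes of Ebp, Dhcr7 and Acly was not tested. Of the 12 general epithelial markers, 2 fell and 0 rose in untreated colitis, against 14.4% and 11.7% of all genes. Of 8 goblet cell markers 4 rose and 0 fell in untreated colitis. In the other 2 comparisons 3 rose and 1 fell, and 0 rose and 3 fell. Of 9 markers of enteric glia and neurons 3 fell and 1 rose, 4 fell and 0 rose, and 2 rose and 1 fell. Smooth muscle markers moved as the colonocyte markers did, 9 of 10 falling in untreated colitis, 7 falling in probiotic colitis against probiotic healthy and 8 rising with cyclosporine against untreated colitis. Their mean deviation ranged from 0.21 to 0.34 in untreated healthy, 0.11 to 0.26 in probiotic healthy, -0.53 to -0.16 in untreated colitis, -0.51 to 0.01 in probiotic colitis and -0.26 to 0.42 in cyclosporine colitis mice, and their part was not tested either.

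Among the regulators, Srebf2 encodes SREBP-2 and Srebf1 encodes SREBP-1, Scap their escort, Insig1 and Insig2 the proteins that retain it, and Stard4 a carrier of cholesterol between membranes. Srebf2 was the one of these 6 genes that passed in a comparison. Its values were 10.07, 10.03, 10.07 and 9.91 in untreated healthy and 9.88, 9.78, 9.62 and 9.88 in untreated colitis mice. They were 9.82, 9.69, 9.76 and 9.98 in probiotic healthy, 9.86, 9.89, 9.94 and 9.86 in probiotic colitis and 9.59, 9.67, 9.74 and 9.71 in cyclosporine colitis mice. The cyclosporine mice lay below all probiotic colitis mice and all untreated healthy mice. Srebf2 fell by 0.23 ± 0.07 with colitis in untreated mice (adjusted p = 0.0222) and by 0.20 ± 0.07 in cyclosporine against probiotic colitis (adjusted p = 0.0424).

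Both calls of Srebf2 lay close to the threshold. The first was lost without untreated healthy mouse 2 (adjusted p = 0.0525) or 6 (0.0582) or untreated colitis mouse 7 (0.0907). It was also lost with a replicate block (0.126), the compared groups alone (0.0737) and without the 3 arrays that lay apart (0.0820). The second was lost without any of probiotic colitis mice 3, 5 and 7 and cyclosporine mice 4, 7 and 10, with adjusted p from 0.0556 to 0.118. It was also lost with no filter (0.0575), with each array centred (0.0735), with a replicate block (0.147) and without the 3 arrays (0.0552).

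The other 5 regulators passed in no comparison. Srebf1 ranged from 7.69 to 8.39 over the 20 mice, Scap from 8.35 to 8.81, Insig1 from 9.56 to 10.67, Insig2 from 7.496 to 7.94 and Stard4 from 8.19 to 9.15. Insig1, itself a target of SREBP, had low values in probiotic healthy mice 5 and 6 (9.66 and 9.56) and a high one in mouse 7 (10.52), the order seen for the enzymes. Its difference between probiotic colitis and probiotic healthy mice was 0.39 (adjusted p = 0.156), and it passed without probiotic healthy mouse 7, at 0.59 (adjusted p = 0.0267).

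Abca1, which loads cholesterol onto apolipoprotein A-I, rose with colitis. Its values were 7.28, 7.72, 8.003 and 7.64 in untreated healthy and 8.29, 8.29, 8.05 and 8.12 in probiotic healthy mice. They were 8.89, 8.20, 9.03 and 8.47 in untreated colitis, 9.08, 9.42, 9.39 and 8.94 in probiotic colitis and 8.06, 8.31, 8.15 and 8.67 in cyclosporine colitis mice. All colitis mice lay above all untreated healthy mice, and the probiotic colitis mice above all cyclosporine mice. Abca1 rose by 0.99 ± 0.18, or 1.98-fold, in untreated colitis (adjusted p = 0.000524) and by 1.02 ± 0.18 in probiotic colitis against probiotic healthy (adjusted p = 0.000239). It fell by 0.91 ± 0.18 in cyclosporine against probiotic colitis (adjusted p = 0.00129). The difference of probiotic from untreated healthy mice was 0.53 (interval 0.16 to 0.90, adjusted p = 0.415), although these groups did not overlap.

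Abcg1, which passes cholesterol to high-density lipoprotein, followed the same order of groups. Its values were 6.90, 6.93, 7.10 and 6.66 in untreated healthy and 7.10, 6.95, 7.26 and 7.01 in probiotic healthy mice. They were 7.55, 7.30, 7.48 and 7.56 in untreated colitis, 7.98, 8.03, 8.01 and 7.54 in probiotic colitis and 7.06, 7.07, 7.25 and 7.54 in cyclosporine colitis mice. Probiotic colitis mice 3, 5 and 7 were the highest of all 20, while mouse 8 lay at the level of untreated colitis. Abcg1 rose by 0.57 ± 0.12, or 1.49-fold, in untreated colitis (adjusted p = 0.00201) and by 0.81 ± 0.12 in probiotic colitis against probiotic healthy (adjusted p = 6.18e-05). It fell by 0.66 ± 0.12 in cyclosporine against probiotic colitis (adjusted p = 0.0009). These calls of both exporters held under all 18 settings.

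Probiotic and untreated colitis differed by 0.56 ± 0.18 for Abca1 (adjusted p = 0.0951) and by 0.42 ± 0.12 for Abcg1 (adjusted p = 0.0677), both missing the threshold. Both passed without probiotic colitis mouse 8, with adjusted p of 0.0429 and 0.00843, and Abca1 also without untreated colitis mouse 7 (adjusted p = 0.0420). Cyclosporine and untreated colitis differed by -0.35 for Abca1 (interval -0.72 to 0.02) and by -0.24 for Abcg1 (interval -0.50 to 0.02), with adjusted p of 0.208 and 0.210. Without the 3 arrays that lay apart, Abca1 passed there at -0.50 (adjusted p = 0.0292).

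Macrophage markers moved with the exporters. Of 16 tested, 10 rose in untreated colitis, 11 rose in probiotic against untreated colitis, 14 rose in probiotic colitis against probiotic healthy and 13 fell in cyclosporine against probiotic colitis. With cyclosporine against untreated colitis 1 fell, against 5.58% of all genes. Their mean deviation ranged from -0.67 to -0.57 in untreated healthy, -0.48 to -0.24 in probiotic healthy, -0.42 to 0.74 in untreated colitis, 0.46 to 1.19 in probiotic colitis and -0.43 to -0.00 in cyclosporine colitis mice. Neutrophil, T cell and B and plasma cell markers rose too, 6 of 8, 6 of 7 and 6 of 7 in untreated colitis and 7 of each in probiotic colitis against probiotic healthy, and 7 of each fell in cyclosporine against probiotic colitis. Of 7 fibroblast markers 3 rose in untreated colitis, 3 in probiotic against untreated colitis and 6 in probiotic colitis against probiotic healthy, and 5 fell in cyclosporine against probiotic colitis. Of 9 endothelial markers 2, 2 and 4 rose and 5 fell in these comparisons, where 11.7%, 2.13% and 13.6% of all genes rose and 12.0% fell. The part of these cells in the changes of Abca1 and Abcg1 was not tested.

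**Figure D4:**
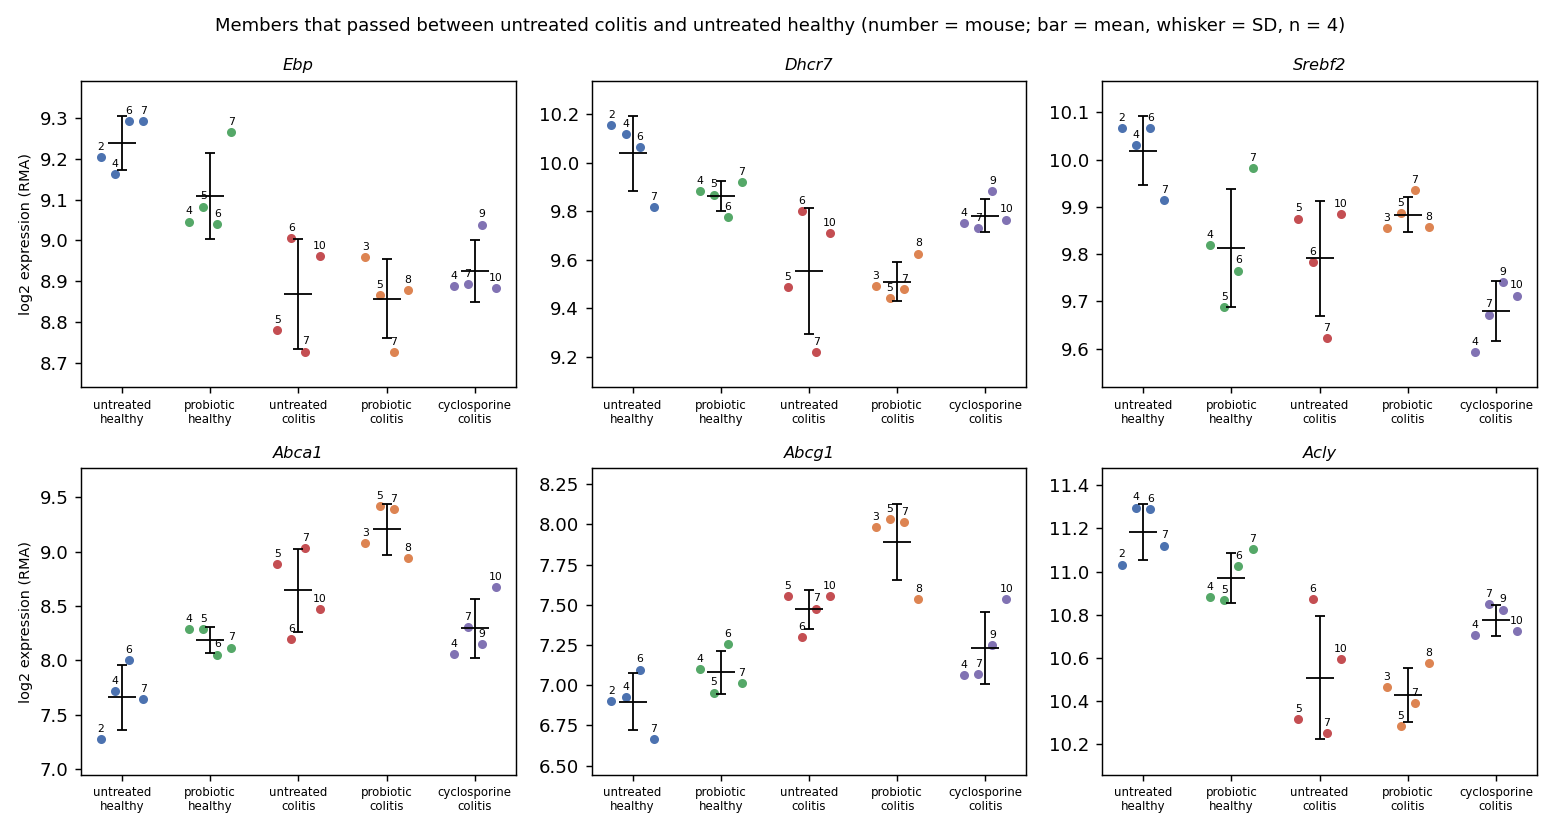
log2 expression of the 6 genes that passed between untreated colitis and untreated healthy mice (y axes, each panel on its own scale) in the 5 groups (x axis), 1 numbered point per mouse, with the mean and SD of 4 mice. Ebp, Dhcr7, Srebf2 and Acly are lower and Abca1 and Abcg1 higher in every untreated colitis mouse than in every untreated healthy mouse. The genes shown were chosen for passing this comparison, and Scap and Fasn, which did not pass, did not overlap there either.

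Fatty acid synthesis starts from cytosolic acetyl-CoA, which Acly makes from citrate. Acaca carboxylates it to malonyl-CoA, Fasn builds palmitate, and Scd1 puts the first double bond into the chain. Acly fell with colitis. Its values were 11.03, 11.30, 11.29 and 11.12 in untreated healthy and 10.32, 10.87, 10.25 and 10.60 in untreated colitis mice. They were 10.88, 10.87, 11.02 and 11.10 in probiotic healthy, 10.46, 10.28, 10.39 and 10.58 in probiotic colitis and 10.70, 10.85, 10.82 and 10.72 in cyclosporine colitis mice. The cyclosporine mice lay above every probiotic colitis mouse and below every healthy mouse.

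Acly fell by 0.68 ± 0.11, or 1.60-fold, in untreated colitis (adjusted p = 0.000226) and by 0.54 ± 0.11 in probiotic colitis against probiotic healthy (adjusted p = 0.000919), both called under all 18 settings. It rose by 0.35 ± 0.11 in cyclosporine against probiotic colitis (adjusted p = 0.0282), a call lost without probiotic colitis mouse 3, 5 or 7 or cyclosporine mouse 7 or 9 (adjusted p from 0.0521 to 0.0969), and with a replicate block (0.1765). Against untreated colitis its difference was 0.27 (adjusted p = 0.117), and it passed without untreated colitis mouse 6, at 0.39 (adjusted p = 0.0119).

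Scd1 had the largest change of all 27 genes, with cyclosporine. Its values were 11.51, 11.33, 9.89 and 11.74 in cyclosporine colitis mice (4, 7, 9 and 10) and 10.45, 8.96, 9.58 and 9.52 in untreated colitis mice (5, 6, 7 and 10). They were 10.44, 10.64, 10.27 and 10.84 in untreated healthy, 11.43, 10.03, 10.87 and 10.87 in probiotic healthy and 9.93, 10.33, 9.95 and 10.31 in probiotic colitis mice. Cyclosporine mice 4, 7 and 10 were among the highest of all 20, and mouse 9 lay within the range of untreated colitis. Scd1 rose by 1.49 ± 0.35, or 2.81-fold, against untreated colitis (adjusted p = 0.00858), and by 0.99 ± 0.35 against probiotic colitis (adjusted p = 0.0463).

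The first call of Scd1 was lost when the 8 arrays of the compared groups were fitted alone (adjusted p = 0.0617), and the second was lost without probiotic colitis mouse 3, 5 or 7 or cyclosporine mouse 4, 7 or 10 (adjusted p from 0.0693 to 0.137). It was also lost with no filter (0.0552), repeated quantile normalization (0.0511), trended robust eBayes (0.0701), a replicate block (0.0770) and the compared groups alone (0.0722). The second call was thus kept in 7 of the 18 settings. In untreated colitis against untreated healthy mice Scd1 differed by -0.92 (interval -1.65 to -0.19, adjusted p = 0.0592) and passed without untreated colitis mouse 5, at -1.19 (adjusted p = 0.0192). Acaca, from 8.14 to 9.03 over the 20 mice, and Fasn, from 9.30 to 10.44, passed in no comparison, with differences of 0.28 and 0.17 in cyclosporine against untreated colitis.

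Adipocyte markers varied in the same mice. Their mean deviation over 11 tested markers was 0.46, 0.34, -0.45 and 0.58 in cyclosporine mice 4, 7, 9 and 10, the order of low and high that Scd1 showed. In these mice macrophage markers were at -0.03, -0.05, -0.43 and -0.00 and T cell markers at -0.01, -0.09, -0.40 and 0.18. B and plasma cell markers were at -0.31, -0.55, -0.77 and 0.65, so these lists kept that order too. Other lists were highest in mouse 9. Epithelial markers were at 0.04, -0.09, 0.10 and -0.06 and goblet cell markers at 0.04, -0.04, 0.23 and -0.08. Smooth muscle markers were at -0.26, 0.33, 0.42 and 0.16 and cycling cell markers at -0.08, -0.03, 0.17 and -0.13. The neutrophil, colonocyte, fibroblast, endothelial and enteric glia and neuron lists did not keep the order of Scd1. In untreated colitis the adipocyte markers were lowest in mouse 10 (-0.64), and Scd1 was lowest in mouse 6. The adipocyte mean ranged from -0.64 to 0.04 in untreated colitis, -0.63 to 0.08 in probiotic colitis, -0.18 to 0.15 in untreated healthy and -0.08 to 0.64 in probiotic healthy mice. With cyclosporine 1 of the 11 (9.09%) rose against untreated colitis and 2 (18.2%) rose against probiotic colitis, where 7.58% and 11.3% of all genes rose. The part of adipocytes, or of the other cell types, in the values of Scd1 was not tested.

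**Figure D5:**
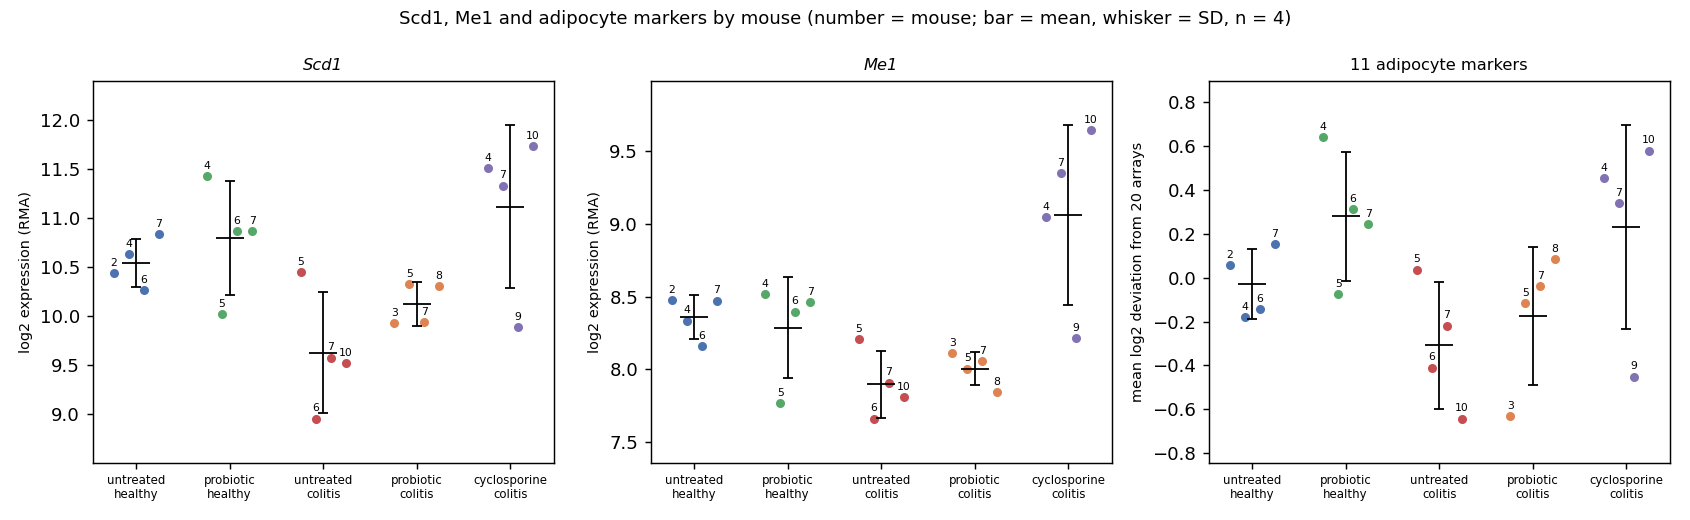
log2 expression of Scd1 and of Me1 and the mean log2 deviation of 11 adipocyte markers from 20 arrays (y axes) in the 5 groups (x axis), 1 numbered point per mouse, with the mean and SD of 4 mice. Cyclosporine mouse 9 lies below mice 4, 7 and 10 in all 3 panels, at 9.89 for Scd1 and -0.45 for the markers.

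The rest of fatty acid and lipid synthesis was read from 32 further genes tested of 36 listed. In untreated colitis 4 rose and 9 fell, against 11.7% and 14.4% of all genes, and with cyclosporine against untreated colitis 8 rose and 1 fell, against 7.58% and 5.58%. The shares that passed in either direction were 40.6% and 28.1% of the 32. Mlxipl, a glucose-responsive transcription factor of lipogenic genes, fell by 0.85 ± 0.10 in untreated colitis (adjusted p = 1.16e-05) and rose by 0.49 ± 0.10 with cyclosporine (adjusted p = 0.00309). Acss2, which makes acetyl-CoA from acetate, fell by 0.95 in untreated colitis, and Gpam, the first enzyme of glycerolipid synthesis, fell by 0.70. Fads2, a desaturase of polyunsaturated fatty acids, fell by 0.51 in untreated colitis. Lpin2, Dgat2, Acsl4 and Fabp5, which act in triglyceride synthesis and fatty acid handling, rose by 0.68, 0.93, 0.56 and 0.35 in untreated colitis, and Dgat2 fell by 0.70 with cyclosporine.

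Me1, the malic enzyme that supplies NADPH for lipogenesis, and Thrsp, a lipogenic nuclear protein, rose with cyclosporine by 1.17 ± 0.22 (adjusted p = 0.00208) and 1.54 ± 0.31 (adjusted p = 0.00334) against untreated colitis. Me1 values were 9.04, 9.35, 8.21 and 9.65 in cyclosporine mice 4, 7, 9 and 10, so that mouse 9 again lay low. Thrsp values in these mice were 8.08, 8.33, 6.76 and 8.72. Cd36, a fatty acid transporter of adipocytes, macrophages and endothelium, rose by 1.26. In probiotic against untreated colitis Fads1 rose by 0.65 (adjusted p = 0.00836) and Fabp2 fell by 0.77 (adjusted p = 0.0392), 1 call in each direction of the 32.

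Against probiotic healthy mice, probiotic colitis had 8 of the 32 rising and 9 falling (13.6% and 16.1% of all genes), led by Fabp5 at 0.67, Acsl4 at 0.78, Fads1 at 0.62 and Lpin2 at 0.62 upwards and by Mlxipl at -0.81, Gpam at -0.70, Acss2 at -0.91 and Pnpla2, the lipase of stored triglyceride, at -0.39 downwards. Against probiotic colitis, cyclosporine colitis had 11 rising and 6 falling (11.3% and 12.0% of all genes), with Mlxipl at 0.59, Thrsp at 1.70, Acss2 at 0.65 and Me1 at 1.06 upwards and Fads1 at -0.52, Fabp5 at -0.46, Lpin2 at -0.49 and Acsl5 at -0.26 downwards. In the healthy mice 0 of the 32 passed with the probiotic, with 3 at an unadjusted p under 0.05 in limma, the smallest p being that of Fads3 (-0.33). The difference between the probiotic effects gave 0 calls and 3 at an unadjusted p under 0.05, the smallest p being that of Fads1 (0.73, adjusted p = 0.299).

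Of 22 further genes of sterol synthesis, uptake and turnover, 15 were tested, and the others were not analysed here. In untreated colitis 3 rose and 2 fell, against 11.7% and 14.4% of all genes. Cyp7b1, which hydroxylates oxysterols, rose by 0.69 ± 0.13 (adjusted p = 0.000549), and Mbtps2, a protease that frees SREBP, and Ggps1, which makes geranylgeranyl diphosphate, rose by 0.28 and 0.26. Acat1, the mitochondrial thiolase, fell by 0.40 and Npc2, a lysosomal sterol carrier, by 0.26. With cyclosporine against untreated colitis Acat1 rose by 0.29 and Cyp7b1 fell by 0.41, 1 of the 15 each way, against 7.58% and 5.58% of all genes.

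Cyp51, the demethylase that acts on lanosterol, was low in the same healthy probiotic mice as Lss and Msmo1, while Tm7sf2, the next enzyme, was at -0.11 between the probiotic groups (adjusted p = 0.482). Cyp51 values were 9.18, 8.26, 7.93 and 9.25 in probiotic healthy and 9.43, 9.38, 9.50 and 9.57 in probiotic colitis mice, with mice 5 and 6 low in the healthy group. Cyp51 rose by 0.82 ± 0.25 between them (adjusted p = 0.0191). In that comparison Cyp7b1 also rose, by 0.93, and Acat1 fell by 0.47. So 2 of the 15 rose and 1 fell, against 13.6% and 16.1% of all genes. In cyclosporine against probiotic colitis Acat1 rose by 0.35 and Cyp7b1 and Ch25h, which makes 25-hydroxycholesterol, fell by 0.78 and 0.86. These were 1 rise and 2 falls of the 15, against 11.3% and 12.0% of all genes. The probiotic gave 0 calls of the 15 in healthy mice (Ggps1 having the smallest p, at 0.22), 0 in colitis (Cyp7b1, at 0.37) and 0 for the difference of its effects (Ggps1, at -0.22), with 2, 2 and 0 at an unadjusted p under 0.05 in limma.

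Of 17 further LXR receptors, partners and targets, 13 were tested. Apoe, the apolipoprotein that accepts cholesterol from macrophages and an LXR target, rose by 0.64 ± 0.12 in untreated colitis (adjusted p = 0.000657) and by 0.53 ± 0.12 in probiotic against untreated colitis (adjusted p = 0.0247). It rose by 0.93 in probiotic colitis against probiotic healthy and fell by 0.63 in cyclosporine against probiotic colitis. Its values were 8.39, 8.50, 8.49 and 8.27 in probiotic colitis, above all other mice, and 7.15, 7.22, 7.27 and 7.33 in untreated healthy mice, below all others. Abcg5, a partner of Abcg8 in an exporter of sterol at the apical membrane, rose by 0.55 in untreated colitis and by 0.49 in probiotic colitis against probiotic healthy.

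Pltp, the phospholipid transfer protein, rose by 0.89 in probiotic against untreated colitis (adjusted p = 0.0131) and by 0.55 in cyclosporine against untreated colitis (adjusted p = 0.0470). The receptor Nr1h3 (LXR alpha) and its partner Rxra fell by 0.24 and 0.21 in probiotic colitis against probiotic healthy, and Scarb1, a receptor of high-density lipoprotein, fell by 0.31 in cyclosporine against probiotic colitis. In counts, 2 of the 13 rose and 0 fell in untreated colitis, against 11.7% and 14.4% of all genes. In probiotic against untreated colitis 2 rose and 0 fell, against 2.13% and 0.669%. With cyclosporine against untreated colitis 1 rose and 0 fell, against 7.58% and 5.58%. In probiotic colitis against probiotic healthy 2 rose and 2 fell, against 13.6% and 16.1%. In cyclosporine against probiotic colitis 0 rose and 2 fell, against 11.3% and 12.0%. The shares of the 13 that passed were 15.4%, 15.4%, 7.69%, 30.8% and 15.4% in this order. The probiotic in healthy mice gave 0 calls (Pltp having the smallest p, at 0.52), and so did the difference of its effects (Abca7, at -0.31), each with 3 at an unadjusted p under 0.05 in limma.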

How the data were processed

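The authors deposited log2 expression values per probe set, made with RMA per the submitters' processing notes; its version is not given in the sources used here. The table held 41801 probe sets, of which 29195 were filled on all arrays and 12606 were empty, and 0 per-sample columns were left unused. Groups came from sample titles, and the series states biological replicates. Symbols came from the platform's gene annotation, and 22360 probe sets had 1 symbol, 1013 several and 5822 none. All 27 tested members matched RefSeq by gene identifier.

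A probe set was kept above 5.30, the 25th percentile, on at least 4 arrays. A gene was read from its probe set of highest mean. R 4.3.3 and limma 3.58.1 (lmFit on group means of all 20 arrays, eBayes, 15 residual and 4.03 prior degrees of freedom) gave 7 comparisons, with Benjamini-Hochberg adjusted p under 0.05. The fit was tested on simulated data. The members and the gene lists were chosen with earlier results of these data known. Members that pass are given in full, the others by their range. From each further list up to 4 genes with the smallest adjusted p were named per direction, or the 1 with the smallest p where none passed, so that counts can exceed the names. Animal numbers name mice within a group: the 20 same-numbered pairs had correlations of deviations from -0.185 to 0.433, 5 of them over 0.1, so no pairs were formed. Alternatives were dropping or tightening the filter, centring each array, repeating quantile normalization, the trended robust form of eBayes, weights per array, averaged probe sets, a replicate block, fits of only the groups compared, and each array left out in turn. Leaving out the 3 arrays that stood apart was added after seeing the data. For each member and comparison of 2 groups this makes 18 settings. Arrays have no read depth, and signal over background limits them.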

Additional observations from a re-analysis of the deposited data

Results flagged for a closer look

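In groups of 4 mice, a value was picked out where its gap to the nearest other mouse exceeded Dixon's 95% critical share of the range of the group. Of 135 combinations of gene and group this held for 8, or 5.93%, and chance gives about 1 in 20.

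Of sterol enzymes, Hmgcs1 was low in untreated healthy mouse 7, at 10.832 against 11.478 to 11.534 in the others, and this mouse was also low in Scap, at 8.588 against 8.622 to 8.629. Mvk was high in probiotic colitis mouse 3, at 7.75 against 7.678 to 7.689. Nsdhl was high in cyclosporine mouse 4, at 9.833 against 9.535 to 9.563. Cyclosporine mouse 9, the mouse low in Scd1, was high in Ebp, at 9.039 against 8.883 to 8.893, and in Stard4, at 9.043 against 8.629 to 8.696. Abcg1 was low in probiotic colitis mouse 8, one of the arrays that stood apart, at 7.537 against 7.983 to 8.032. Acaca was low in probiotic healthy mouse 5, at 8.181 against 8.565 to 8.629. No cause was tested for any of these values.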

How the results depend on the processing

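No listed gene that passed reversed its direction under any alternative. Both scalings kept the median change of all genes within 0.1 of 0. With the replicate block, listed genes that rose and fell numbered 2 and 3 in untreated colitis against untreated healthy, 1 and 0 in probiotic against untreated colitis, 1 and 1 in cyclosporine against untreated colitis, 5 and 1 in probiotic colitis against probiotic healthy and 0 and 2 in cyclosporine against probiotic colitis. All genes that rose and fell under it numbered 154 and 65 in probiotic against untreated colitis and 970 and 1130 in cyclosporine against probiotic colitis, 615 fell in cyclosporine against untreated colitis, and 1 fell for the difference of the probiotic effects. In probiotic against untreated colitis, array weights gave 2 listed genes that rose and 1063 and 619 of all genes, the compared groups alone 0 and 0 of all genes, and 70 of all genes fell with no filter and 184 after quantile normalization again. In cyclosporine against untreated colitis the compared groups alone gave 0 listed genes that rose, and 724 and 395 of all genes. They gave 19 of all genes that rose with the probiotic in healthy mice. In cyclosporine against probiotic colitis, no filter left 1 listed gene that rose. For the difference of the probiotic effects, array weights gave 5 of all genes that rose. Without the 3 arrays that stood apart, a setting chosen after seeing the data, 1 listed gene rose in probiotic against untreated colitis, 3 rose and 2 fell in cyclosporine against untreated colitis, where 1424 of all genes fell, and 12 rose and 1 fell of all genes for the difference of the probiotic effects. Leaving out each mouse in turn, listed genes that rose ranged from 0 to 2 in probiotic against untreated colitis, from 1 to 3 (fell, 0 to 2) in cyclosporine against untreated colitis, from 4 to 13 in probiotic colitis against probiotic healthy and from 0 to 3 (fell, 2 to 5) in cyclosporine against probiotic colitis. All genes that rose and fell ranged from 60 to 829 and 11 to 394 in probiotic against untreated colitis, from 843 to 1342 and 510 to 1105 in cyclosporine against untreated colitis, and from 0 to 30 and 0 to 15 for the difference of the probiotic effects, and from 1218 to 2302 rose in cyclosporine against probiotic colitis. Fewer samples in a fit, or the added block terms, leave fewer degrees of freedom. The cause of the other shifts was not tested. The calls of Pmvk, Fdft1, Lss, Msmo1, Nsdhl and Sc5d between the probiotic groups, of Srebf2, and of Acly and Scd1 in cyclosporine against probiotic colitis were lost without some single mice, with the direction kept. All of these but that of Pmvk were also lost with the replicate block. A missed threshold with 4 mice a group does not show that groups were alike.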
